A study of Homo sapiens with 12 samples.

Results

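SK-OV-3 cells transfected with an shRNA against IRF-1 were compared with SK-OV-3 cells transfected with a scrambled shRNA, all without CDDP, the platinum drug cisplatin, which binds DNA. SK-OV-3 is an established human ovarian cancer cell line known for amplified ERBB2. The comparison used 6 of the study's 12 Illumina bead arrays, 3 for the scrambled shRNA (shCTRL) and 3 for the shRNA against IRF-1 (shIRF1), while the other 6 arrays hold the same pair of shRNAs with CDDP, and an extraction note repeated for all samples gives 24 hours of CDDP and no dose. The labels give no shRNA sequence or vector, and they leave unstated whether the cells were a pool or a clone and whether each sample had its own culture, so p-values measure only how far these samples spread, which may be a technical spread. Probes were kept where the deposited detection p-value was under 0.05 on at least 3 of the 6 arrays, which left 18811 of 47313 probes. Of these, 14838 carried 1 gene symbol and stood for 11199 of the 20043 genes on the array.

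IRF-1 is a transcription factor that is induced by interferons and binds interferon response elements in promoters, where it switches on genes of antigen presentation, antiviral defence and cell death. It is known as a brake on tumour cell growth in several tissues. An shRNA acts by guiding Argonaute proteins to the target messenger RNA, which is then cut or held back from translation, so the level of the target messenger RNA is the usual check on such cells.

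That check did not show a lower level here. IRF1 read 8.30, 8.51 and 7.84 for shCTRL against 8.59, 8.14 and 8.20 for shIRF1, in normalized log2 signal. The groups overlapped, and the difference of 0.10 (SE 0.25, 95% confidence interval -0.44 to 0.63) did not pass the test (limma, adjusted p = 0.891). Its sign turned when shCTRL replicate 3 (-0.09) or shIRF1 replicate 1 (-0.04) was left out. On the arrays with CDDP the corresponding difference was -0.82 (adjusted p = 0.0816). Arrays are therefore called by their label, "labelled shIRF1", and every direction below rests on that label.

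Between 18618 and 19900 probes were detected on each of the 6 arrays, with a mean deposited signal of 272 to 388. Arrays of a group correlated at 0.983 to 0.986 for shCTRL and at 0.978 to 0.984 for arrays labelled shIRF1, against 0.961 to 0.973 between the groups. Of the SK-OV-3 markers, ERBB2 read 11.99, 11.72 and 12.10 on shCTRL arrays and 12.38, 12.19 and 12.63 on arrays labelled shIRF1, while CDKN2A was not above background on any array and WT1 was detected on 1 shCTRL array alone. Markers of other cell types were mostly near background. Of 19 lymphoid and myeloid markers on the array 8 were detected nowhere, CD3D, CD3E, CD2, CD4 and CD8A among them, and the summed linear signal of the list was 1060 to 1165 for shCTRL and 803 to 891 for arrays labelled shIRF1. That list moved with CD68, a lysosomal protein of macrophages and also of tumour cells, which fell by 0.75 (adjusted p = 0.024) and missed the threshold in 5 of the 6 fits that left out 1 array. Of 20 fibroblast and endothelial markers 11 were detected nowhere, VWF, CDH5, THY1 and COL3A1 among them, and their summed signal was 666 to 756 against 640 to 680.

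A probe or gene is called here when its two-sided limma p, after Benjamini-Hochberg adjustment across the 18811 probes, was under 0.05, and where several probes stand for a gene, the brightest was used. All values are normalized log2 signals, and changes are arrays labelled shIRF1 minus shCTRL on the log2 scale. Of the 18811 probes, 1282 were called (6.82%), 657 higher and 625 lower. By gene, 501 of 11199 were called higher (4.47%) and 427 lower (3.81%), which is 8.29% in either direction. The median change over all genes was 0.0031. The called changes had a median size of 0.98, with 252 genes up and 192 down by at least 1, and 32 up and 30 down by at least 2. The values of the groups did not overlap for 5089 probes (27.1%), which include 1281 of the 1282 called. A lack of overlap stated below for called genes therefore describes the values and is no further support. Fewer probes were called without shIRF1 replicate 1 (713), shCTRL replicate 3 (753) or shCTRL replicate 1 (764), and 662 were called when arrays were scaled to 1 median in place of quantile normalization. Of the genes described below as called without any exception, CCNG1, CDH2, CLDN12, DUSP6, FBLN1, H1-2, SERPINE2 and TNFRSF10B missed the threshold under median scaling and CCL20 without background correction.

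**Figure D1:**
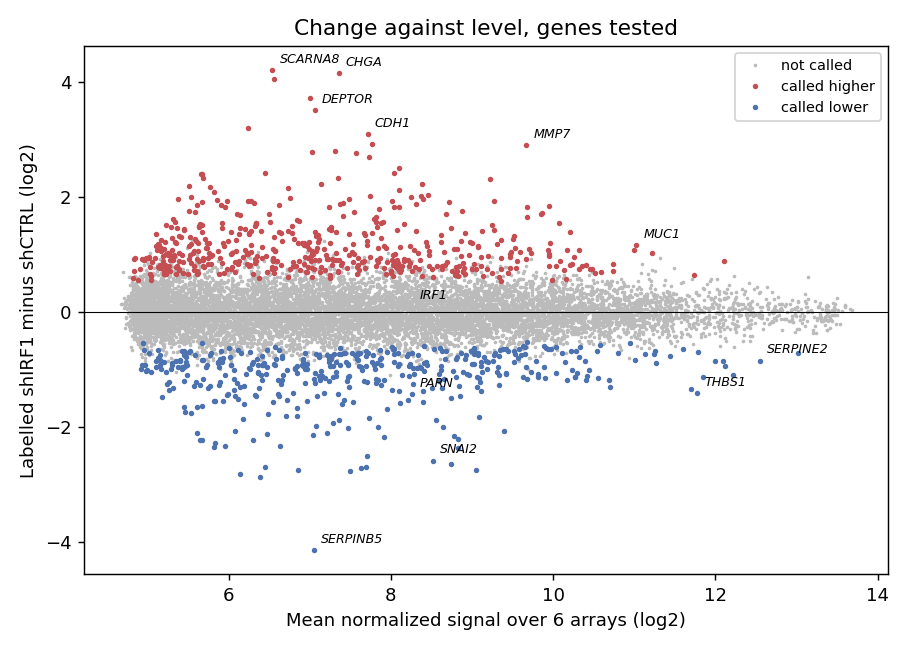
Change (arrays labelled shIRF1 minus shCTRL, log2) against the mean normalized log2 signal over the 6 arrays, 1 point per gene tested. The 501 genes called higher and the 427 called lower lie on both sides of 0 at low and middle levels, and 8 higher and 22 lower fall among the brightest 10% of genes.

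The 15 largest rises held small RNAs, described further on, and protein-coding genes. CHGA, which encodes chromogranin A of secretory granules, read 5.04, 5.06 and 5.75 on shCTRL arrays and 8.19, 9.32 and 10.77 on arrays labelled shIRF1. The groups lay far apart although the arrays labelled shIRF1 spread widely, and the rise was 4.15 (SE 0.68, adjusted p = 0.00161). DEPTOR, an inhibitor of the kinase mTOR, went from 5.22, 5.39 and 5.32 to 8.89, 8.57 and 8.99. Its rise of 3.51 (SE 0.17, adjusted p = 4.24e-08) is an 11.4-fold difference, and its second probe rose by 2.97. WDR72, a WD repeat protein, read 6.4, 6.32 and 6.21 against 8.77, 9.08 and 9.81. MMP7, a metalloprotease made by epithelial cells, was already bright at 8.51, 8.06 and 8.08 and reached 11.42, 10.57 and 11.36. All arrays labelled shIRF1 lay above all shCTRL arrays for both, with rises of 2.91 (adjusted p = 0.000147) and 2.90 (adjusted p = 7.92e-06).

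HLA-DMB, a subunit of the exchanger that loads peptides onto class II molecules, read 5.91, 7.03 and 6.22 on shCTRL arrays and 9.10, 9.23 and 8.89 on arrays labelled shIRF1. DDIT4, a stress-induced inhibitor of mTOR complex 1, read 6.93, 7.14 and 6.45 against 9.95, 8.70 and 9.40. TCIM, a small regulator of Wnt signalling, read 7.30, 6.63 and 6.53 against 9.56, 8.68 and 9.48. None of the 3 overlapped between the groups, and the rises were 2.69, 2.51 and 2.42 (adjusted p = 8.01e-05, 0.000118 and 0.000111).

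Among the falls, SERPINB5 stood first. It encodes maspin, a serpin of epithelial cells, and read 9.35, 8.75 and 9.24 on shCTRL arrays against 4.88, 4.79 and 5.28 on arrays labelled shIRF1. It was detected on 1 of those 3 arrays, and the fitted change was -4.13 (SE 0.21, adjusted p = 4.24e-08). SEMA6A, a membrane semaphorin, dropped from 8.11, 7.50 and 7.81 to 4.72, 4.86 and 5.29, a change of -2.85 (adjusted p = 2.46e-06). Its fitted change is likewise set against a group near background. The brightest probe of MMP28, an epidermal metalloprotease, read 7.72, 7.29 and 7.61 and then 4.90, 4.59 and 4.71, which is not well above background, so it was at least 6.21-fold lower (adjusted p = 5.12e-06). Such a bound compares the brighter mean with the dimmest signal at which probes were detected on the other arrays.

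DKK1, a secreted inhibitor of Wnt signalling, was among the brighter falls. Its values were 10.33, 9.83 and 11.08 on shCTRL arrays and 7.44, 7.51 and 8.09 on arrays labelled shIRF1, with no overlap and a change of -2.74 (SE 0.33, adjusted p = 0.000147). FAM83A, an adaptor of EGF receptor signalling, read 8.35, 8.05 and 8.29 against 5.45, 5.57 and 5.44. HS3ST3A1, a heparan sulfate sulfotransferase, read 9.23, 8.70 and 8.94 against 6.32, 6.62 and 6.4. APCDD1L, related to a Wnt inhibitor, read 10.40, 9.74 and 9.88 against 7.53, 8.0 and 7.44. ADGRG2, an adhesion receptor coupled to G proteins, read 6.90, 7.24 and 7.23 against 4.83, 4.47 and 5.08, and was detected on 1 of the latter arrays. These genes were lower on every array labelled shIRF1, by 2.33 to 2.74.

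**Figure D2:**
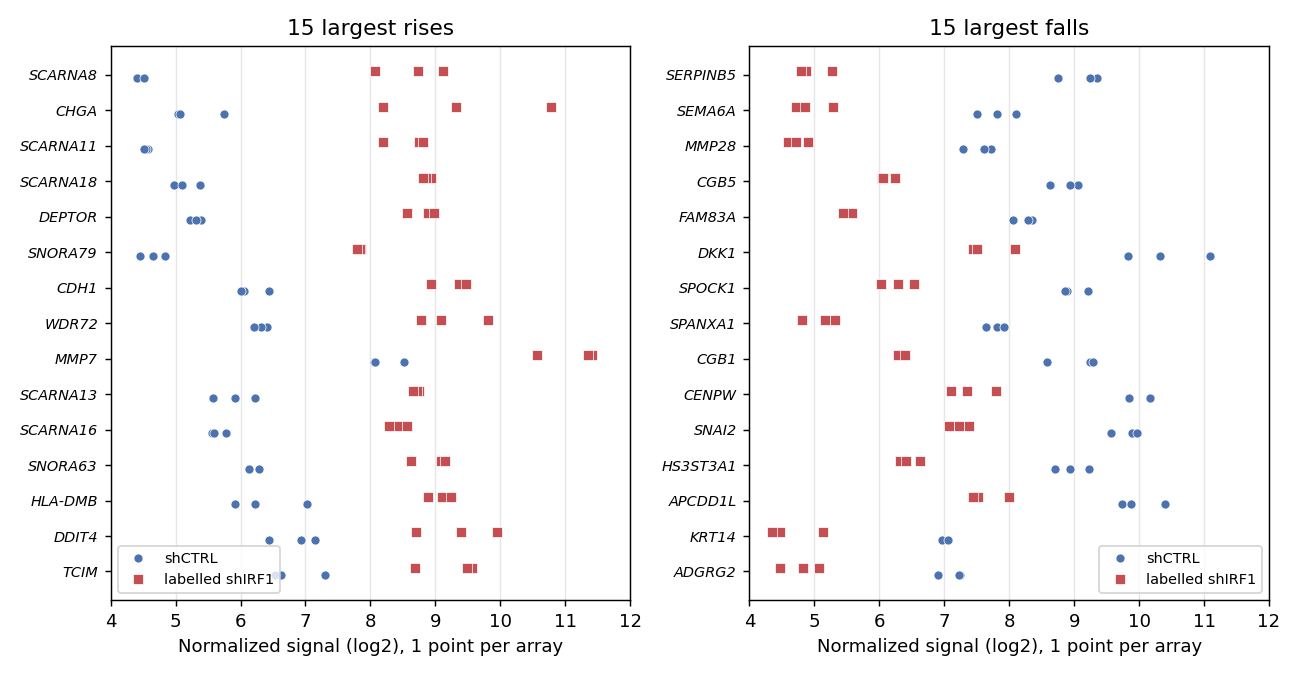
Normalized log2 signal on each array for the 15 largest rises (left) and the 15 largest falls (right) among called genes whose groups do not overlap; circles are shCTRL arrays and squares arrays labelled shIRF1. For every gene shown the 3 squares lie on one side of the 3 circles, and CHGA has the widest spread among squares, 8.19 to 10.77.

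Genes of cell junctions and polarity were called higher more often than lower. Of 23 such genes tested, 7 rose and 1 fell (34.8% called, against 8.29% of all genes). Their median change was 0.25 against 0.0031 over all genes. CDH1, which encodes E-cadherin of adherens junctions, read 6.06, 6.44 and 6.01 on shCTRL arrays and 9.37, 8.94 and 9.47 on arrays labelled shIRF1. That is an 8.5-fold rise (3.09 on the log2 scale, SE 0.23, adjusted p = 3.09e-06) with no overlap. CRB3, a Crumbs protein of the apical membrane, read 5.84, 6.13 and 6.14 against 7.68, 7.69 and 7.55, a rise of 1.60 (adjusted p = 0.000372). CGN, which encodes cingulin of tight junctions, read 7.21, 7.26 and 7.73 against 9.20, 8.64 and 8.95, a rise of 1.52 (adjusted p = 0.000634). PKP2, a plakophilin of desmosomes, rose by 1.48 (adjusted p = 0.00681), from 6.76, 6.90 and 7.60 to 8.70, 8.37 and 8.63.

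The remaining called junction genes were less steady. The ETS factors of epithelia ELF3 and EHF rose by 1.57 and 1.55 (adjusted p = 0.00941 and 0.0282), and SPINT1, an inhibitor of matriptase, was not well above background on shCTRL arrays and at least 1.58-fold higher (adjusted p = 0.0269). SPINT1 entered the test only through arrays labelled shIRF1, so the detection filter set its direction. ELF3 missed the threshold in 2 of the 6 fits without 1 array (adjusted p up to 0.0547, without shCTRL replicate 3), EHF in 5 (up to 0.123, without shIRF1 replicate 1), and SPINT1 in all 6 (up to 0.105, without shCTRL replicate 1). DSG2, a desmosomal cadherin, fell by 0.77 (adjusted p = 0.0254) and missed it in 4 (up to 0.116, without shIRF1 replicate 1). In those 6 fits 4 to 6 genes of the list were higher and 0 to 1 lower, with 4 called without shCTRL replicate 3 or shIRF1 replicate 1 and 5 without shCTRL replicate 1. All 12 claudins tested, the strand proteins of tight junctions, had a positive sign and 3 rose. CLDN3 read 5.86, 6.48 and 5.73 against 8.29, 8.12 and 8.34, a rise of 2.23 (SE 0.26, adjusted p = 0.00013), and CLDN12 rose by 0.80.

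Mesenchymal genes gave the opposite count, 0 higher and 5 lower of 15 tested (33.3% called, against 8.29% of all genes). The 5 stayed called in each of the 6 fits that left out 1 array. SNAI2, which encodes Slug, a repressor that binds E-boxes, read 9.89, 9.56 and 9.97 on shCTRL arrays and 7.08, 7.38 and 7.22 on arrays labelled shIRF1. Its fall of 2.58 (SE 0.18, adjusted p = 2.46e-06) left no overlap. TWIST2, another transcription factor of the list, read 8.12, 7.64 and 7.89 against 6.75, 6.91 and 6.68, a change of -1.10 (adjusted p = 0.00729). CDH2, which encodes N-cadherin, fell by 0.85 (adjusted p = 0.00578) from 10.76, 10.72 and 10.99 to 9.90, 9.90 and 10.12. PRRX1 and CDH11, a homeobox factor and a cadherin of mesenchyme, were not well above background on arrays labelled shIRF1 and were at least 1.94-fold and 2.05-fold lower (adjusted p = 0.000538 and 0.0051). Both entered the test only through shCTRL arrays, so the detection filter set their direction within the count of 5. VIM, which encodes vimentin, was among the brightest genes of all arrays and did not pass the test, at 13.70, 13.42 and 13.38 against 13.34, 13.52 and 13.46.

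Promoter sequence was read for 9078 of the tested genes from RefSeq (GRCh38.p14, 250 bases before to 50 after the start site). The 6 letters CAGGTG, an E-box form bound by Slug and related factors, were searched on both strands. They stood in 24.2% of the 363 promoters of genes called higher, in 13% of the 331 of genes called lower and in 17.9% of all tested genes with a promoter. A match is a description of the letters and not a site of binding. The 150 bases before the start of CRB3, chr19:6464121-6464270 on the plus strand, hold 3 matches, and those of ELF3, chr1:202010437-202010586 on the plus strand, hold 1 on the reverse strand. Junction genes with the letters did not share a direction, since DSG2, called lower, held 2 matches in its window and DSP, DSC2, TJP1, PATJ and AP1M2, not called, held at least 1 each. The stretches of CRB3 and ELF3 are shown as examples among genes called higher, with matches in capitals, 5′ to 3′.
CRB3: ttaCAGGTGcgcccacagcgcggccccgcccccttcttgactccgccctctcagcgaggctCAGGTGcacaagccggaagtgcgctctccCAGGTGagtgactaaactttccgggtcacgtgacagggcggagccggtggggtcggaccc
ELF3: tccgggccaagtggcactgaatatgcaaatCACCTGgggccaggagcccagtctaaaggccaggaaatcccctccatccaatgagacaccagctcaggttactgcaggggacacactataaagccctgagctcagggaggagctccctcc

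Genes of the extracellular matrix moved in both directions. Of 35 matrix proteins, 6 were higher and 9 lower (42.9% called, against 8.29% of all genes). SPOCK1, a testican proteoglycan, read 9.22, 8.88 and 8.85 on shCTRL arrays and 6.29, 6.03 and 6.53 on arrays labelled shIRF1, a change of -2.70 (SE 0.22, adjusted p = 5.12e-06). SPARC, a collagen-binding protein, read 7.71, 7.99 and 9.03 against 6.72, 5.90 and 6.33 (-1.92, adjusted p = 0.00172). THBS1, which encodes thrombospondin 1, was the brightest called fall of the list at 12.44, 12.30 and 12.69 against 11.03, 11.23 and 10.97 (-1.41, adjusted p = 0.000382). COL1A1, the main chain of type I collagen and also a fibroblast marker, fell by 1.31 (adjusted p = 0.0032), and LAMB1, a laminin chain, by 1.14 (adjusted p = 0.00311). For all 5 the arrays labelled shIRF1 were below every shCTRL array. In the other direction LAMA5, a laminin chain of epithelial basement membranes, read 10.66, 10.88 and 10.57 against 11.58, 11.68 and 11.92, a rise of 1.03 (adjusted p = 0.00453), and FBLN1, a fibulin, rose by 0.98 (adjusted p = 0.00615). ITGB4, the integrin chain of hemidesmosomes, was the 1 integrin of 14 called higher, at 7.60, 8.20 and 8.23 against 9.10, 9.52 and 9.79 (1.46, adjusted p = 0.000713). Another integrin was called lower, so 14.3% of them were called.

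Of 24 matrix proteases and inhibitors, 2 rose and 5 fell (29.2% called, against 8.29% of all genes). Beside the rise of MMP7 stood a rise of ADAMTS5, an aggrecan-cleaving protease, by 1.09 (adjusted p = 0.00282), from 6.98, 6.83 and 6.86 to 8.02, 8.09 and 7.83. ADAM19, a membrane protease, read 8.34, 8.20 and 8.25 on shCTRL arrays and 6.34, 5.82 and 6.35 on arrays labelled shIRF1 (-2.09, adjusted p = 1.13e-05). MMP1, the interstitial collagenase, read 8.98, 8.51 and 9.21 against 7.39, 6.88 and 7.68 (-1.58, adjusted p = 0.00379). MMP2, a gelatinase, was near background on all arrays and at least 1.5-fold lower (adjusted p = 0.00906). MMP2 and the brightest probe of MMP28 entered the test only through shCTRL arrays, so the detection filter set their direction. The proteases named thus split by gene, and the groups overlapped for none of them. SERPINE2, a protease inhibitor and one of the brightest genes called, read 13.02, 12.90 and 12.99 against 12.09, 12.12 and 12.17 (-0.84, adjusted p = 0.00569).

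Keratins gave 2 falls and no rise among 9 tested (22.2% called, against 8.29% of all genes). Both falls are keratins of stratified epithelia. KRT14 read 6.97, 6.96 and 7.06 on shCTRL arrays and 5.13, 4.47 and 4.35 on arrays labelled shIRF1, of which 1 detected it, so the fitted change of -2.34 (adjusted p = 1.23e-05) is set against a group near background. KRT16 was not well above background on arrays labelled shIRF1 and was at least 3.69-fold lower (adjusted p = 0.000105). It entered the test only through shCTRL arrays, so the detection filter set its direction. The 2 genes are close in sequence, so their probes may share signal. KRT8 and KRT18, the pair of simple epithelia, did not pass the test, with changes of -0.38 and 0.35 (adjusted p = 0.339 and 0.73).

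Of 25 genes of the mTOR complexes and their regulators 2 were called (8.0%, against 8.29% of all genes), DEPTOR and DDIT4, both higher and both inhibitors. Of 27 Wnt pathway genes 1 rose and 4 fell (18.5% called), and 2 fell without shCTRL replicate 1 or 3 or shIRF1 replicate 2. The falls included 3 secreted inhibitors, DKK1, DKK3 (-0.73, adjusted p = 0.0319) and SFRP1, which read 8.80, 8.70 and 8.88 on shCTRL arrays and 6.94, 6.95 and 7.45 on arrays labelled shIRF1 (-1.68, adjusted p = 6.05e-05). The fourth, FZD8, is a receptor with a fitted change of -1.05 (adjusted p = 0.0261) that was detected on 1 of 3 arrays labelled shIRF1. WNT5A, a ligand of the noncanonical branch, rose by 1.48 (adjusted p = 0.00161), from 4.79, 4.88 and 5.01 to 6.37, 6.25 and 6.49, and 1 of the 3 shCTRL arrays detected it. DKK3 missed the threshold in 4 of the 6 fits without 1 array (adjusted p up to 0.125, without shIRF1 replicate 2) and FZD8 in 4 (up to 0.12, without shIRF1 replicate 1).

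Single ligands and receptors of growth factor pathways also changed. NRG1, a ligand of ERBB3 and ERBB4, was the 1 called gene of 12 in the EGF receptor family (8.33%, against 8.29% of all genes). It read 7.73, 7.82 and 7.89 on shCTRL arrays and 6.32, 6.41 and 6.36 on arrays labelled shIRF1 (-1.45, SE 0.23, adjusted p = 0.00112). KIT, the receptor of stem cell factor, read 7.20, 6.15 and 6.93 on shCTRL arrays, was not well above background on arrays labelled shIRF1 and was at least 3.62-fold lower (adjusted p = 0.000275). BAMBI, a decoy receptor of TGF-beta signalling, fell by 1.06 (adjusted p = 0.00207), and GDF15, a stress-induced TGF-beta relative, rose by 1.30 (adjusted p = 0.00299). EFNA1, an ephrin ligand, read 8.93, 8.21 and 8.56 against 10.44, 9.59 and 9.92 (1.42, adjusted p = 0.0013). SEMA3B, a secreted semaphorin, was not well above background on shCTRL arrays and at least 3.89-fold higher (adjusted p = 0.000824). DUSP6, a phosphatase of ERK, rose by 1.06 (adjusted p = 0.00814), while FOSL1, a Fos family member induced through ERK, fell by 1.15 (adjusted p = 0.00376). None of these called genes overlapped between the groups, as was so for 1281 of the 1282 called probes.

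**Figure D3:**
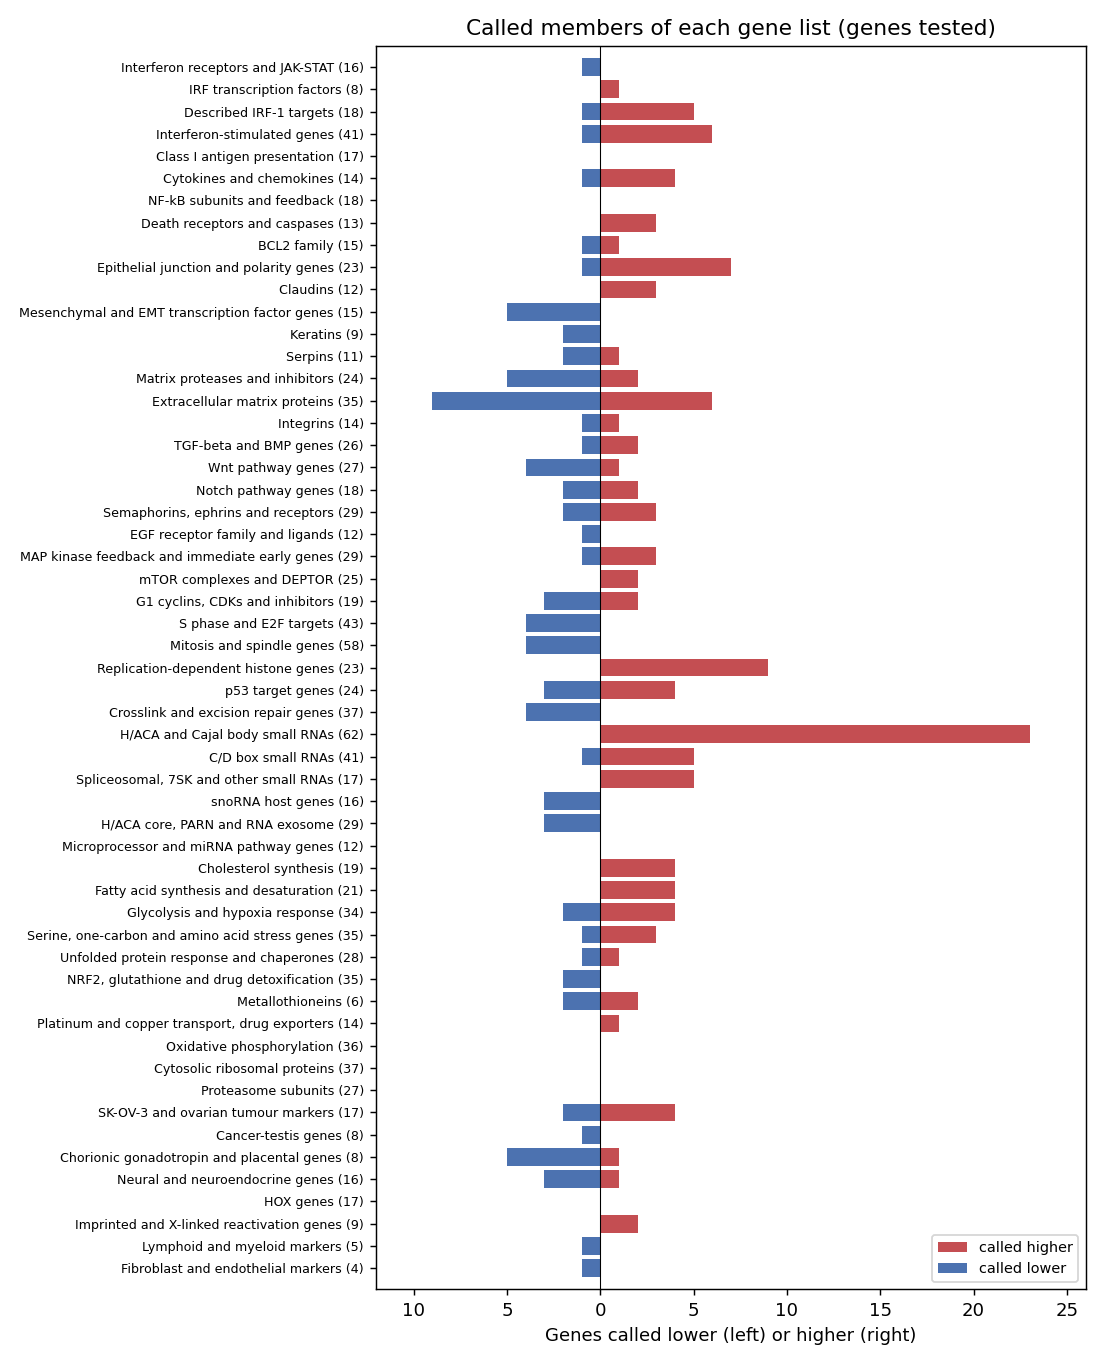
Number of genes called higher (right) and lower (left) in each of 55 gene lists, with the number of genes tested in parentheses. The list of H/ACA and Cajal body small RNAs has the longest bar, 23 higher and 0 lower of 62, and 7 lists have no called gene.

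Of 18 described targets of IRF-1, 5 were called higher and 1 lower (33.3%, against 8.29% of all genes). Of the 18, 9 had a positive and 9 a negative sign, and the median change was 0.01. IDO1, an enzyme of tryptophan breakdown, read 9.44, 9.01 and 8.56 on shCTRL arrays and 11.20, 10.36 and 10.60 on arrays labelled shIRF1 (1.72, SE 0.27, adjusted p = 0.00129). GBP2, an interferon-induced GTPase, read 5.27, 5.19 and 5.53 against 6.88, 6.32 and 6.99 (1.40, adjusted p = 0.00106). TNFSF10, which encodes the death ligand TRAIL, read 5.59, 5.0 and 4.44 against 7.82, 5.96 and 7.04 (1.93, SE 0.38, adjusted p = 0.00586). Its lowest shCTRL value was near background. All arrays labelled shIRF1 were above all shCTRL arrays for these genes. PLAAT4, an interferon-responsive growth suppressor, was the 1 target that fell (-0.95, adjusted p = 0.023), and it missed the threshold in 3 of the 6 fits without 1 array (adjusted p up to 0.0988, without shIRF1 replicate 2). Of 41 further interferon-stimulated genes, 6 were higher and 1 lower (17.1% called). However, 1 gene of this list was called without shIRF1 replicate 1, 2 without shCTRL replicate 3, 3 without shCTRL replicate 1 or 2 and 4 without shIRF1 replicate 3. The list includes ISG20, a nuclease, which read 6.23, 6.83 and 6.50 against 8.0, 8.03 and 7.99 (1.48, SE 0.18, adjusted p = 0.00014) and passed in each of the 6.

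Antigen presentation, cytokine and death receptor genes differed in their counts. Of 17 genes of class I antigen presentation 0 were called (1 lower without shIRF1 replicate 1), with a median change of -0.11, and of 18 NF-kB subunits and feedback genes 0 were called. Of 16 interferon receptors and JAK-STAT genes SOCS2, a feedback inhibitor, alone was called (6.25%, against 8.29% of all genes). It changed by -0.82 (adjusted p = 0.0115) and missed the threshold in 3 of the 6 fits without 1 array (up to 0.0574, without shIRF1 replicate 1). Cytokines and chemokines gave 4 rises and 1 fall among 14, or 35.7% against 8.29% of all genes, and 3 rises without shCTRL replicate 1 or 3. TNF was not well above background on shCTRL arrays, read 7.70, 6.42 and 6.47 on arrays labelled shIRF1 and was at least 3.89-fold higher (adjusted p = 0.00184). It entered the test only through arrays labelled shIRF1, so the detection filter set its direction. CCL20, a chemokine for dendritic cells, rose by 1.95 (adjusted p = 0.00347), from 4.53, 5.02 and 5.08 to 7.57, 6.61 and 6.30. It was near background on shCTRL arrays, of which 2 of 3 detected it. CXCL16, a membrane-bound chemokine, rose by 1.11 (adjusted p = 0.000673). Death receptor and caspase genes gave 3 rises among 13 (23.1% called), and 1 under median scaling. TNFRSF10B, a receptor of TRAIL, read 8.90, 8.84 and 9.15 against 9.86, 9.87 and 10.19 (1.01, adjusted p = 0.00154). BIK, a death-promoting member of the BCL2 family, rose by 1.02 (adjusted p = 0.00813).

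The 10 letters GAAANNGAAA, a form of the interferon element that IRF proteins bind, were searched on both strands of the same promoter windows. They stood in 3.03% of promoters of genes called higher, in 2.11% of those called lower and in 2.69% of tested genes with a promoter. Of called genes with the element 11 were higher and 7 lower, but many genes holding it, ISG15, IFIT1, MX1 and B2M among them, were not called. Of those shown, TNFSF10, BST2 (0.90, adjusted p = 0.0151) and ISG20 were called higher and IFI44 was called lower (-0.81, adjusted p = 0.0296). IFIH1, IFITM1 and PARP14 hold it too and were called higher but are not shown. IFI44 alone was lower among called genes of the interferon lists that hold it. BST2, an antiviral tether, and IFI44, an interferon-induced protein, missed the threshold in 2 and 5 of the 6 fits without 1 array (adjusted p up to 0.0739 without shCTRL replicate 3, and up to 0.122 without shIRF1 replicate 2). Both also missed it under median scaling. IFI44 missed it as well on the submitters' rescaled values, without background correction and without the detection filter. The stretches are shown as examples, 5′ to 3′ on the strand of the gene with matches in capitals. They lie at chr3:172523598-172523627 (minus strand), chr19:17405735-17405770 (minus), chr15:88638937-88638966 (plus) and chr1:78649761-78649788 (plus).
TNFSF10: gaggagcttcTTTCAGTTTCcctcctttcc
BST2: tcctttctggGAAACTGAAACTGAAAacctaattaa
ISG20: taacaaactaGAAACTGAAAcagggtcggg
IFI44: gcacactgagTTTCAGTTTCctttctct

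Small RNAs of the nucleus formed the list with the most genes tested and the most called, though not the highest share called (37.1%, against 75% of placental genes and 66.7% of metallothioneins). The share called over all genes was 8.29%. H/ACA RNAs guide the conversion of uridine to pseudouridine in ribosomal and spliceosomal RNA, those of the Cajal body are called scaRNAs, and their 3′ ends are trimmed by exonucleases that include PARN. Of 62 such RNAs tested 23 were called higher and 0 lower, with a median change of 0.72, or 0.49 when RNAs below background on shCTRL arrays are set at their lower bound. Of the 125 on the array 63 were not tested, and 14 of the 62, with 8 of the calls, were detected on no shCTRL array, so they entered only through the arrays where they were high. Among the 48 detected on at least 1 shCTRL array 15 were higher and 0 lower (median 0.37), and among the 28 detected on all 6 arrays 10 were higher and 0 lower (median 0.51). The number called was 17 to 22 when 1 array was left out. SCARNA18 read 4.98, 5.38 and 5.10 on shCTRL arrays and 8.93, 8.85 and 8.81 on arrays labelled shIRF1, a rise of 3.71 (SE 0.17, adjusted p = 4.24e-08). SCARNA13 read 5.58, 5.91 and 6.22 against 8.76, 8.72 and 8.65, and SCARNA16 read 5.77, 5.57 and 5.59 against 8.42, 8.56 and 8.28. SNORA63, an H/ACA RNA of the nucleolus, read 6.12, 6.13 and 6.29 against 9.08, 9.16 and 8.62. These 3 rose by 2.80, 2.78 and 2.77 with no overlap.

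Several of these RNAs were not well above background on any shCTRL array and detected on every array labelled shIRF1. SCARNA8 read 9.12, 8.07 and 8.74 on the latter and was at least 13.3-fold higher (adjusted p = 4.49e-06). SCARNA11 read 8.74, 8.20 and 8.82 and was at least 12.8-fold higher (adjusted p = 2.52e-07). SNORA79 read 7.86, 7.84 and 7.79 and was at least 7.61-fold higher (adjusted p = 4.49e-06), and SCARNA23 read 6.81, 6.84 and 6.98 and was at least 3.92-fold higher. Other members did not pass the test, such as SNORA61 and SCARNA10 with changes of -0.32 and -0.39 (adjusted p = 0.563 and 0.37).

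Other noncoding RNAs gave smaller counts. Of 41 C/D RNAs, which guide ribose methylation, 5 rose and 1 fell (14.6% called, against 8.29% of all genes). Without shCTRL replicate 1 or 3 or shIRF1 replicate 2 the counts were 3 and 0. The fall, SNORD99, entered the test only through shCTRL arrays. Of the rises, 3 are the near-identical copies SNORD3A, SNORD3C and SNORD3D of the U3 RNA, whose probes may share signal. SNORD3A read 6.81, 7.25 and 7.09 on shCTRL arrays and 9.10, 8.76 and 9.06 on arrays labelled shIRF1 (1.92, adjusted p = 3.19e-05). TERC, the telomerase RNA, which has an H/ACA domain, read 6.0, 5.87 and 6.44 against 7.52, 7.62 and 7.26 (1.37, adjusted p = 0.00111). RNY4, a Y RNA, read 5.06, 5.56 and 5.16 against 6.97, 7.37 and 6.53 (1.70, adjusted p = 0.000558). RMRP, the RNA of the MRP nuclease, was not well above background on shCTRL arrays and at least 1.77-fold higher (adjusted p = 0.00527). By RefSeq class, 22.0% of 91 snoRNA genes were higher, against 4.32% of 10693 protein-coding genes, and 0 of 33 microRNA genes were called. The snoRNA class holds RNAs already counted in the lists above. Some called ones, SNORA13 and SNORA74B among them, entered only through the arrays labelled shIRF1, so this share is not separate support.

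Lists of snoRNA host genes and of processing factors held no gene called higher. The hosts were not matched to the RNAs above that rose. Of 16 snoRNA host genes 0 rose and 3 fell (18.8% called), and 1 fell without shCTRL replicate 3 or shIRF1 replicate 1 or 2. Among them was SNHG7, at 9.64, 9.47 and 9.54 on shCTRL arrays and 8.84, 8.71 and 8.48 on arrays labelled shIRF1 (-0.87, adjusted p = 0.0103). Of 29 genes of the H/ACA core, PARN and the RNA exosome 0 rose and 3 fell (10.3% called, near the 8.29% of all genes). PARN, the deadenylase that trims H/ACA 3′ ends, read 8.91, 9.07 and 8.95 against 7.23, 7.73 and 7.71, a change of -1.42 (SE 0.25, adjusted p = 0.00256). EXOSC3, a cap subunit of the exosome, read 10.88, 10.77 and 10.81 against 9.72, 9.85 and 9.72 (-1.06, adjusted p = 0.000459). EXOSC8, a ring subunit, fell by 0.78 (adjusted p = 0.0467) and missed the threshold in each of the 6 fits without 1 array (up to 0.163, without shIRF1 replicate 3). Kits of the kind named in the labels are known to copy RNA from an oligo(dT) primer, so the signal of an RNA without a poly(A) tail also reflects how much of it carries one. What part tails, PARN or the exosome had in the small RNA signals was not tested.

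**Figure D4:**
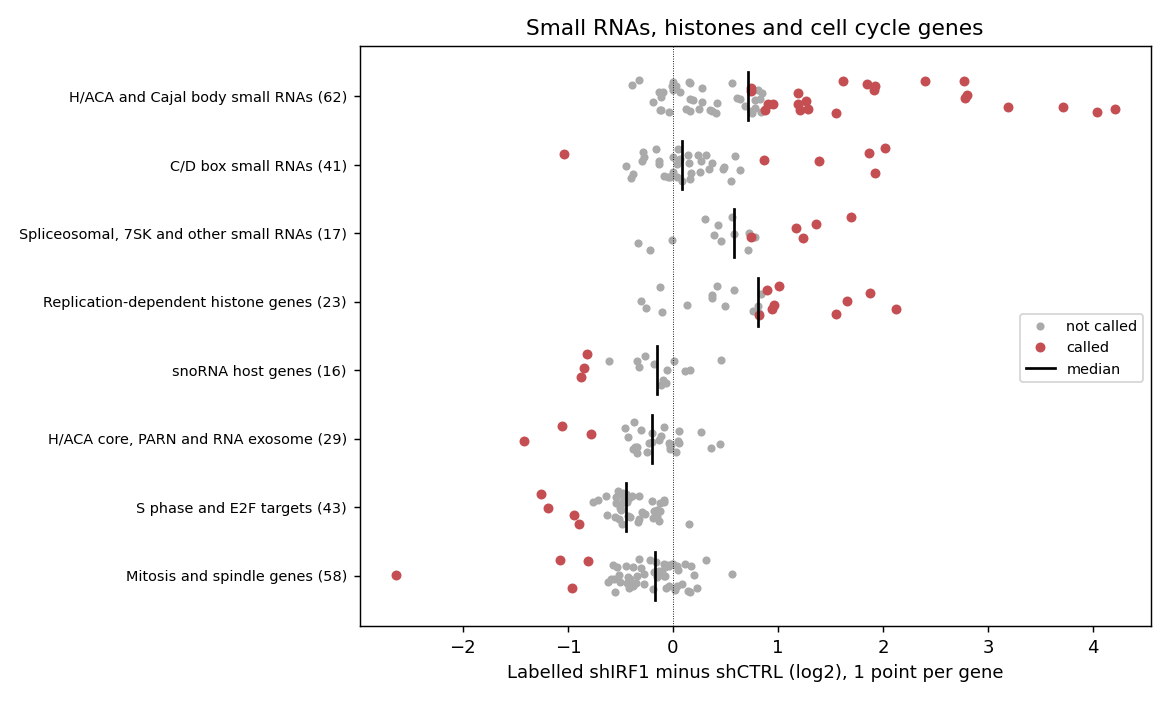
Change (arrays labelled shIRF1 minus shCTRL, log2) of each gene tested in 8 lists, with called genes in red and the list median as a bar; vertical scatter within a list is random. The medians run from 0.81 for histones and 0.72 for H/ACA and Cajal body RNAs to -0.45 for S phase genes.

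Replication-dependent histone genes, whose messages normally end in a stem-loop in place of a poly(A) tail, also rose. Of 23 tested 9 were higher and 0 lower (39.1% called, against 8.29% of all genes). When 1 array was left out 5 to 9 were higher, with 5 without shIRF1 replicate 1. Of 12 histone genes detected on all 6 arrays 8 were higher. H2BC12 read 9.52, 9.17 and 9.22 on shCTRL arrays and 11.15, 10.77 and 10.63 on arrays labelled shIRF1 (1.55, SE 0.21, adjusted p = 0.000387). H1-2, a linker histone, read 8.76, 8.97 and 8.93 against 9.95, 9.69 and 9.86 (0.95, adjusted p = 0.00468). H2AC18, H2AC19 and H2AC20 rose by 2.13, 1.88 and 1.65, but they are close in sequence and may share signal.

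Genes of DNA replication went the other way in sign. Of 43 S phase genes 42 had a negative sign, with a median of -0.45. Of the 43, 4 were called lower (9.3%, near the 8.29% of all genes), and 2 without shIRF1 replicate 1. UHRF1, which couples DNA methylation to replication, read 10.86, 10.46 and 10.95 on shCTRL arrays and 9.48, 9.54 and 9.70 on arrays labelled shIRF1 (-1.19, SE 0.18, adjusted p = 0.000921). PRIM1, a primase subunit, read 8.80, 8.68 and 8.55 against 7.79, 7.92 and 7.64 (-0.89, adjusted p = 0.00678). MCM5, a subunit of the replicative helicase, fell by 1.26 (adjusted p = 0.0103) and missed the threshold in 2 of the 6 fits without 1 array (up to 0.0605, without shIRF1 replicate 1). Of 58 mitosis genes 0 rose and 4 fell (6.9%, below the 8.29% of all genes), and 2 fell without shCTRL replicate 1 or any 1 array labelled shIRF1, 1 without shCTRL replicate 2. CENPW, a centromere protein, had the clearest change, from 10.17, 10.16 and 9.84 to 7.10, 7.80 and 7.34 (-2.64, SE 0.21, adjusted p = 4.49e-06).

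Regulators of the cell cycle and of p53 were split. E2F7, a repressor among the E2F factors, read 8.64, 8.40 and 8.49 on shCTRL arrays and 7.06, 7.18 and 7.51 on arrays labelled shIRF1 (-1.26, adjusted p = 0.000795). CDKN1C, which encodes the kinase inhibitor p57, read 5.22, 5.62 and 5.53 against 7.16, 6.63 and 6.35 (1.26, adjusted p = 0.00282). Of 24 described p53 targets 4 were higher and 3 lower (29.2% called, against 8.29% of all genes). CCNG1, a cyclin induced by p53, read 9.99, 10.03 and 9.99 against 10.87, 10.84 and 10.73 (0.81, adjusted p = 0.00627), and GADD45A, a growth arrest protein, fell by 0.96 (adjusted p = 0.00791). SK-OV-3 is known to lack functional p53.

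The called genes of lipid synthesis were all higher. Of 19 cholesterol synthesis genes 4 rose and 0 fell, and of 21 fatty acid genes 4 rose and 0 fell. Both shares called were above the 8.29% of all genes. Of the cholesterol genes 16 had a positive and 3 a negative sign, with a median change of 0.40. The fatty acid genes were split in sign, with 11 positive, 10 negative and a median of 0.04. Under median scaling 1 cholesterol gene and 2 fatty acid genes were called. The fatty acid count was also 2 without shCTRL replicate 1 or 2 or shIRF1 replicate 1 or 3. SCD, which makes monounsaturated fatty acids, read 9.85, 9.10 and 9.15 on shCTRL arrays and 10.55, 10.44 and 10.70 on arrays labelled shIRF1 (1.20, SE 0.21, adjusted p = 0.00233). SREBF1, a transcription factor of lipid synthesis, read 6.38, 6.81 and 6.45 against 7.62, 7.55 and 7.66 (1.06, adjusted p = 0.00819). INSIG1, which holds SREBP factors in the endoplasmic reticulum, rose by 1.05 (adjusted p = 0.00948) but missed the threshold in 2 of the 6 fits without 1 array (up to 0.0568, without shIRF1 replicate 1), and without that array 1 cholesterol gene was called, and 2 were called without shCTRL replicate 2.

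Among other metabolic genes, CBS, which makes cystathionine from serine and homocysteine, read 6.34, 6.82 and 6.23 on shCTRL arrays and 8.77, 7.97 and 8.36 on arrays labelled shIRF1 (1.90, SE 0.25, adjusted p = 0.000301). CA12, a membrane carbonic anhydrase, read 7.50, 7.25 and 7.06 against 9.28, 9.44 and 9.76 (2.22, adjusted p = 0.000126), and its second probe rose by 2.00. EPAS1, which encodes the hypoxia factor HIF-2 alpha, rose by 1.15 (adjusted p = 0.00485), while ADM, the vasodilator adrenomedullin, read 9.48, 9.46 and 9.80 against 8.33, 8.14 and 7.90 (-1.46, adjusted p = 0.000301). Both rises and falls thus occurred among the 34 genes of glycolysis and hypoxia, with 4 higher and 2 lower (17.6% called, against 8.29% of all genes). The counts were 2 and 1 without shCTRL replicate 2 or shIRF1 replicate 1. No gene was called among 36 of oxidative phosphorylation, 37 of the cytosolic ribosome and 27 of the proteasome.

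Metallothioneins, small proteins that bind zinc, copper and platinum, split within the family. MT1E read 6.37, 6.63 and 6.25 on shCTRL arrays and 8.04, 7.74 and 7.41 on arrays labelled shIRF1 (1.32, adjusted p = 0.00427), and MT1F rose by 1.69 (adjusted p = 0.00251). MT2A, the brightest member, read 12.55, 12.56 and 12.12 against 11.31, 11.47 and 11.04 (-1.13, adjusted p = 0.00381), and MT1G fell by 1.28 (adjusted p = 0.00376). All 4 calls held in each of the 6 fits without 1 array. Among 14 genes of platinum and copper transport TMEM205, a membrane protein described in platinum resistance, alone was called (7.14%, against 8.29% of all genes). It changed by 0.83 (adjusted p = 0.0248) and missed the threshold in 4 of the 6 (up to 0.114, without shCTRL replicate 3).

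Markers of the tumour line also moved. GRB7, an adaptor encoded beside ERBB2, read 6.95, 7.36 and 7.26 on shCTRL arrays and 9.05, 8.69 and 9.28 on arrays labelled shIRF1 (1.82, SE 0.23, adjusted p = 0.000201), and its other 2 probes rose by 1.31 and 0.91. ERBB2 itself did not pass the test (0.46, adjusted p = 0.199). FOLR1, the folate receptor of ovarian carcinoma, read 7.81, 8.41 and 8.35 against 6.97, 6.39 and 6.45 (-1.59, adjusted p = 0.00156). MUC1, a surface mucin, read 10.27, 10.84 and 10.22 against 11.67, 11.42 and 11.73 (1.16, adjusted p = 0.0204) and missed the threshold in 4 of the 6 fits without 1 array (up to 0.0931, without shCTRL replicate 3). WFDC2, which encodes the ovarian serum marker HE4, was not well above background on shCTRL arrays and at least 1.4-fold higher (adjusted p = 0.00624).

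The beta subunits of chorionic gonadotropin, a placental hormone that some carcinomas make, were among the genes that fell. Of 8 placental genes tested 5 were lower and 1 higher (75.0% called, against 8.29% of all genes), with a median change of -1.75. In each of the 6 fits without 1 array 5 stayed lower. CGB5 read 8.64, 9.05 and 8.94 on shCTRL arrays and 6.24, 6.04 and 6.06 on arrays labelled shIRF1 (-2.76, SE 0.23, adjusted p = 5.92e-06). CGB1 and LHB fell by 2.68 and 2.06, and CGB8 did not pass the test (-0.78, adjusted p = 0.062), but the CGB genes and LHB are near-identical copies and their probes may share signal. PSG4, a pregnancy-specific glycoprotein of another family, read 6.98, 6.89 and 7.42 against 5.90, 4.71 and 5.13 (-1.85, adjusted p = 0.000613). PEG10, an imprinted gene needed in the placenta, went against them, since it was not well above background on shCTRL arrays and at least 2.11-fold higher (adjusted p = 0.00017). PEG10 entered the test only through arrays labelled shIRF1, so the detection filter set its direction. SPANXA1, a testis gene with near-identical copies, read 7.81, 7.65 and 7.91 against 4.81, 5.32 and 5.17 (-2.69, adjusted p = 5.12e-06).

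Called genes were spread unevenly over level, and probes of a gene mostly shared a sign but often not a call. When genes were cut by mean level into 10 bins, 2.68% were called in the brightest bin and 11.4% in the fifth. Of 2947 genes with several tested probes, 329 had a called probe, and 0 had probes called in opposite directions. Among the 329, all probes had the same sign for 293, at least 2 probes were called for 119, and all were called for 98. Among genes named here, other probes of TNFRSF10B (0.06, adjusted p = 0.931), FOLR1 (-0.36, 0.549), SOCS2 (-0.53, 0.203), SREBF1 (0.51, 0.147) and SNHG7 (-0.62, 0.0718, and -0.0047, 0.997) and both other probes of CD68 (-0.16, 0.763, and 0.14, 0.858) did not pass the test, while a dimmer probe of KRT18 rose by 0.99 (0.0146). A dimmer probe of DSG2 (-1.15, 0.109) and 1 of MUC1 (1.37, 0.0542) did not pass either, while another MUC1 probe rose by 1.45 (0.00476). Another 99 genes were detected on all arrays labelled shIRF1 and on no shCTRL array, of which 47 were called, and 60 the other way round, of which 23 were called. Such genes passed the detection filter only through the group where they were high. Their direction was set by that filter, so these counts are no separate support. The chromosomes with the most one-sided counts were chromosome 19, with 43 higher and 12 lower of 785 genes, and chromosome 7, with 27 and 9 of 516. That is 5.48% higher and 1.53% lower on chromosome 19 and 5.23% and 1.74% on chromosome 7. Over all genes the shares were 4.47% and 3.81%, so mainly the share called lower departed.

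The same pair of shRNA labels was compared on the 6 arrays with CDDP, which share no array with the comparison above but were normalized together with it. There 818 probes were called (4.35%). Of the 928 genes called without CDDP, 851 had the same sign with CDDP (91.7%), 328 were called in the same direction and 3 in the opposite one. No such share was taken over all genes tested. The labels do not say whether both comparisons used the same transfected cells, so the shared signs are no separate support. For the 501 genes called higher the median change was 1.00 without CDDP and 0.54 with it, and for the 427 called lower it was -0.95 and -0.65. Medians of genes picked as called in 1 of 2 comparisons are expected to be smaller in the other, so these do not show that CDDP weakened the difference. SCARNA18, detected on all 12 arrays, differed by 3.71 without CDDP and 3.42 with it.

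**Figure D5:**
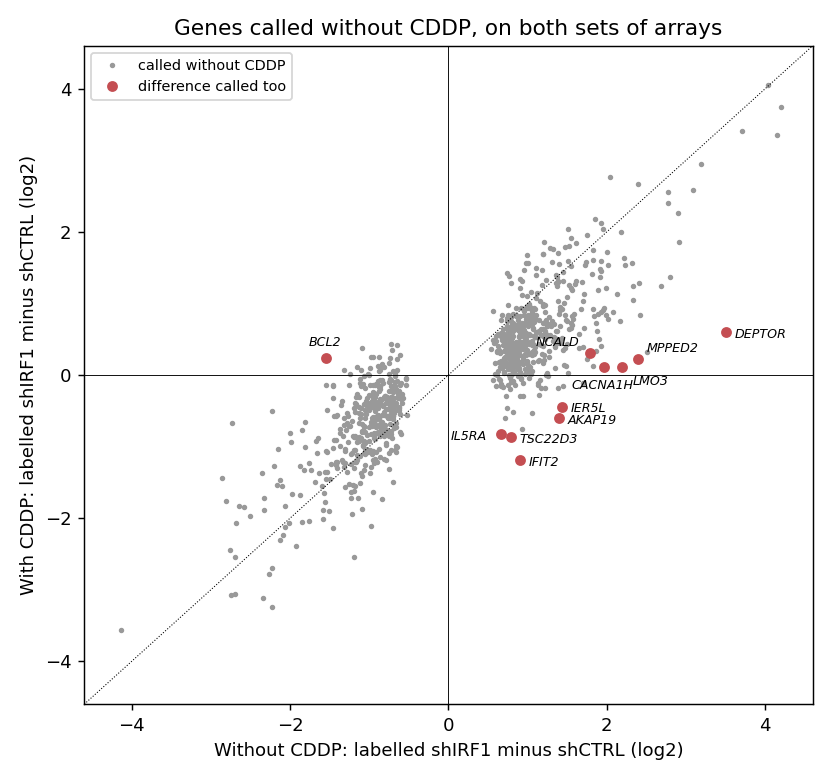
Change (arrays labelled shIRF1 minus shCTRL, log2) without CDDP (x axis) and with CDDP (y axis) for the 928 genes called without CDDP; the dotted line marks equal changes and red points are genes whose difference between the comparisons was also called. DEPTOR lies farthest from the line, at 3.51 and 0.60.

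A test of the difference itself called 18 probes (0.0957%), 14 positive and 4 negative, while 1569 had an unadjusted p under 0.05. IFIT2, an interferon-induced protein that binds RNA, read 5.53, 4.93 and 5.22 on shCTRL arrays and 6.23, 5.74 and 6.42 in cells labelled shIRF1 when no CDDP was given. With CDDP it read 7.20, 7.0 and 6.71 against 5.76, 5.67 and 5.92. The order of the groups was thus turned, with changes of 0.91 and -1.19 and a difference of 2.09 (SE 0.31, adjusted p = 0.0163). TSC22D3, which encodes the glucocorticoid-induced leucine zipper, was turned in the same way at 8.0, 7.80 and 7.89 against 8.97, 8.5 and 8.59 without CDDP and 9.88, 9.83 and 10.05 against 9.02, 9.18 and 8.94 with it (difference 1.66, adjusted p = 0.0163). AKAP19, for which no role is given here, changed by 1.39 without CDDP and by -0.60 with it (difference 2.00, adjusted p = 0.0163). For these genes every array was above background. Without CDDP, IFIT2 missed the threshold in 4 of the 6 fits that left out 1 array (adjusted p up to 0.0927, without shCTRL replicate 2) and TSC22D3 in 1 (0.0649, without shIRF1 replicate 1). The difference was called for 5 probes without shCTRL replicate 3, 6 without shIRF1 replicate 1, 7 without shCTRL replicate 1 and 8 without shCTRL replicate 2, and for 11 under median scaling (10 positive, 1 negative). A second TSC22D3 probe did not pass (difference 1.25, adjusted p = 0.443).

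For other genes the difference coincided with signals near background on the arrays with CDDP. DEPTOR read 4.33, 4.55 and 4.38 on shCTRL arrays with CDDP and 4.82, 5.04 and 5.21 on those labelled shIRF1 with CDDP, where it was detected on 0 and 2 of 3 arrays, so its difference of 2.90 (adjusted p = 0.000104) sets a large rise against a pair of groups at the floor. BCL2, the founding inhibitor of apoptosis in its family, read 6.52, 6.82 and 6.46 on shCTRL arrays and 4.68, 5.27 and 5.24 in cells labelled shIRF1 when no CDDP was given (-1.54, adjusted p = 0.000141) and by this probe was detected on no array with CDDP. Its second probe was detected on 2 arrays of each group with CDDP and did not pass the test of the difference (-0.77, adjusted p = 0.535). LMO3, a LIM factor, was also detected on no array with CDDP and MPPED2, a phosphodiesterase, on 1, and both were not well above background on shCTRL arrays without CDDP either and were at least 3.26-fold and 3.86-fold higher on arrays labelled shIRF1. Whether the responses of these genes to the shRNA differ with CDDP cannot be told apart from the limit of detection.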

How the data were processed

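Per the labels' protocols, an Ambion MessageAmp kit turned total RNA of 12 samples into biotin-labelled cRNA, which was measured on Illumina bead arrays of 47313 probes. The deposited table holds, per the file headers, an average signal intensity and a detection p-value for each probe, not normalized, and BeadStudio 2 is named in the submitters' processing notes. The submitters' second table, deposited intensity values on a linear scale rescaled by array in a way not given in the sources used here, was used only as an alternative. Here the 12 arrays were corrected by normexp from the detection p-values with an offset of 16, quantile normalized and put on the log2 scale (neqc in limma 3.58.1, R 4.3.3), and lmFit and eBayes fitted 4 group means, with 8 degrees of freedom from the residuals and 6.29 from the prior. Probe symbols were updated through Entrez IDs for 30070 of the 30109 probes with 1 symbol, while 17196 had none and 8 several. The fit was tested on simulated data. Bead arrays give no read depth, so the number of arrays limits the precision.

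The 15 largest rises and falls and up to 6 members of each gene list were taken by rule. CCNG1, DSG2, ERBB2, FBLN1, H1-2, LAMB1, MMP2, SCARNA10, SNORA61, SPINT1, TSC22D3 and VIM were chosen after their values were seen. The members and lists were chosen with earlier results of these data known.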

Additional observations from a re-analysis of the deposited data

Results flagged for a closer look

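For 15 probes with a gene symbol the difference between the comparison without CDDP and the one with CDDP passed its own limma test (arrays labelled shIRF1 minus shCTRL, log2, without CDDP minus with CDDP). The positive differences were 2.90 and 2.81 for the probes of DEPTOR, 2.17 for MPPED2, 2.09 for IFIT2, 2.07 for LMO3, 2.0 for AKAP19, 1.88 for IER5L, 1.86 for CACNA1H, 1.83 for RPS29 (1 of its probes), 1.66 for TSC22D3, 1.5 for IL5RA and 1.48 for NCALD. The negative ones were -2.0 for a dimmer probe of CCBE1, -1.77 for BCL2 and -1.36 for a dimmer probe of F2R. On the arrays with CDDP, the probes given here for BCL2, CACNA1H, CCBE1 and LMO3 and the dimmer DEPTOR probe were detected on no array, and those of MPPED2 and NCALD on 1, while a second BCL2 probe was detected on 4 of the 6. IL5RA, IFIT2 and TSC22D3 were called in opposite directions by the separate comparisons. Genes here beyond those of the report were chosen after their values were seen.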

How the results depend on the processing

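No called gene named in the report changed sign under any alternative run. Of the 130, 103 stayed called under all of those in which they were tested and 112 without any 1 array, and 40 were not tested when detection at 0.01 on all 6 arrays was required. Probes called without CDDP numbered 662 under median scaling and 713 to 1027 without 1 array, and for the difference between the comparisons 11, 8 (detection at 0.01 on all 6 arrays) and 5 to 19, while 377 were called with CDDP under median scaling; the cause was not tested. Without 1 array the change of IRF1 ran from -0.09 to 0.24, with a turned sign (-0.09 and -0.04) without shCTRL replicate 3 or shIRF1 replicate 1, and that of VIM from -0.12 to 0.04, with a turned sign without shCTRL replicate 1, and neither was called. With the replicate number as a block 1505 probes were called and 22 for the difference. Samples of the same number deviated together at r = 0.22, 0.09 and 0.22, not all over 0.1, and each correlated best with its own, a hint from the data; the labels do not say whether the numbers pair the samples, and they were not treated as pairs. The alternatives for the arrays with CDDP were added after seeing the data. Probes near background limit the fold changes to bounds.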
